A study of Mus musculus with 32 samples.

Results

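Germ cells of the mouse testis carry their own versions of several enzymes of glucose and lactate use. The 10 genes described here are 4 germ cell isozymes, Ldhc, Pgk2, Pdha2 and Gapdhs, their 5 somatic paralogs, Ldha, Ldhb, Pgk1, Pdha1 and Gapdh, and Hk1, the hexokinase of the first step of glycolysis. They were chosen by symbol and matched to Ensembl identifiers through GENCODE, out of 20368 genes in the juvenile gene table and 85539 in the transcript table. RNA-seq had been made from mixed germ cells of single untreated C57BL/6J males, 3 mice at 8 days post partum (dpp) and 5 mice at each of 10, 12, 14, 16 and 18 dpp. Through these ages the first wave of spermatogenesis moves from spermatogonia into meiotic prophase, so the comparison of ages follows the arrival of spermatocytes. The suspensions had been filtered through mesh and not sorted by stage. Of 5 mice sampled at 8 dpp, the authors left out those that matched the others of that age poorly. The spread at 8 dpp is therefore that of the mice kept. A further 4 samples were pachytene and diplotene spermatocytes of 9-week-old males of the same strain, enriched by sedimentation at unit gravity, each from the pooled testes of 6 mice. Levels are in TPM, the number of transcripts of a gene in a fixed total of transcripts, which adjusts for transcript length and library total and keeps no read counts, so the depth of a library is unknown and the error given is the spread between mice.

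Glycolysis turns glucose into pyruvate, lactate dehydrogenase interconverts pyruvate and lactate, and the pyruvate dehydrogenase complex feeds pyruvate into the citric acid cycle. Spermatocytes are known to live mainly on lactate supplied by Sertoli cells, and spermatids and sperm use glycolysis along the flagellum. Pgk1 and Pdha1 are X-linked, and the X chromosome is transcriptionally silenced in pachytene spermatocytes, whereas Pgk2 and Pdha2 are intronless autosomal copies expressed in the testis.

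The identity of the samples was first examined with marker genes. The 5 pachytene spermatocyte markers summed to between 52.4 and 60.8 TPM at 8 dpp, between 597 and 1067 TPM at 18 dpp and between 2072 and 2121 TPM in the adult samples. The 8 Sertoli cell markers were at 3 TPM or more in every juvenile mouse and summed to between 7591 and 8611 TPM at 8 dpp, between 3577 and 4739.7 TPM at 18 dpp and between 321 and 469.98 TPM in the adult samples, where Amh was below 3 TPM. The 5 peritubular markers fell from a range of 1051 to 1160.0 TPM at 8 dpp to between 524 and 1034 TPM at 18 dpp and under 10.8 TPM in the adult, and the 6 spermatogonium markers from a range of 567.98 to 668 TPM to between 233 and 312 TPM and under 11.4 TPM. All 6 spermatid markers stayed below 3 TPM in the juvenile mice and summed to between 862 and 1166 TPM in the adult samples. Between 8 and 18 dpp the other lists rose or overlapped. Macrophage markers went from between 29.95 and 38.9 TPM to between 48.9 and 95.3 TPM. Leydig cell markers went from between 175 and 198 TPM to between 169 and 472 TPM, with 206 to 270 TPM in the adult. Red blood cell markers were at 243 to 681 TPM and then 250 to 367 TPM. Endothelial markers were at 50.2 to 56.6 TPM and then 31.8 to 65.2 TPM. At 18 dpp, mice 1 to 3 stood apart from mice 4 and 5: the pachytene markers summed to between 999.9 and 1067 TPM in the former and to 643 and 597 TPM in the latter, and the Sertoli cell markers to between 3577 and 3734 TPM and to 4739.7 and 4709 TPM. The members' levels at 18 dpp are therefore given for each mouse. In such mixed samples, fewer cells of a type and less RNA per cell cannot be told apart.

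Across ages, 3 of the 4 germ cell isozymes (Ldhc, Pgk2 and Pdha2) rose, Gapdhs stayed near 0, and 4 of the 5 somatic isozymes fell, while Ldha rose. Of the 9 members with at least 3 TPM in a mouse, between 8 and 18 dpp 5 were higher (Ldhc, Pgk2, Pdha2, Ldha and Hk1) and 4 were lower (Ldhb, Pgk1, Pdha1 and Gapdh) at an adjusted p under 0.05 in limma with Benjamini-Hochberg adjustment over all genes. Over all 20368 genes, 31.8% were called higher and 36.3% lower in that comparison (6487 and 7402 genes, or 7589 and 5991 after median-of-ratios scaling and 5532 and 9148 after quantile normalization). Gapdhs did not reach 3 TPM and has values only. Pgk2 reached 3 TPM only at 16 and 18 dpp, so it entered these counts through the ages at which it was high. Between 10 and 16 dpp, Ldhc, Pgk2, Pdha2 and Ldha were higher and Ldhb and Gapdh lower, beside 27.7% and 23.9% of all genes (5638 and 4874 genes, or 4534 and 6500 after quantile normalization). The median log2 difference of all genes from 8 to 18 dpp was -0.09, and it was 0.05 after median-of-ratios scaling and -0.26 after quantile normalization; the 9 members kept their direction and call under both.

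The plot of member levels by age shows where each isozyme departed from its starting level. Between 8 and 10 dpp none of the 9 members passed the limma test, nor did any at an unadjusted p under 0.05, and of all genes 0.977% were higher and 0.226% lower. From 10 to 12 dpp Ldhc and Pdha2 rose, where 12% of all genes were higher and 9.39% lower. From 12 to 14 dpp Ldhc rose further, where 0.157% were higher and 0.0147% lower. Ldhc, Pgk2, Pdha2 and Ldha rose from 14 to 16 dpp, where 12.7% were higher and 11.3% lower, or 2860 higher and 1454 lower genes after median-of-ratios scaling and 2407 and 3375 after quantile normalization against 2594 and 2296 without them. From 16 to 18 dpp the 5 rising members rose and the 4 falling members fell, where 23.4% of all genes were higher and 30.6% lower, or 6193 and 3630 genes after median-of-ratios scaling against 4775 and 6227 without it. Libraries of the 3 older ages reuse index sequences of the 3 younger ages, but the labels give no run or lane. Which libraries were processed together is therefore unknown. A difference between such sets could not be told apart from age in any comparison that crosses them. This may hold for the wide comparisons (8 with 18 and 10 with 16 dpp) and for any step between neighbouring ages. The steps share samples with each other and with the wide comparisons.

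**Figure D1:**
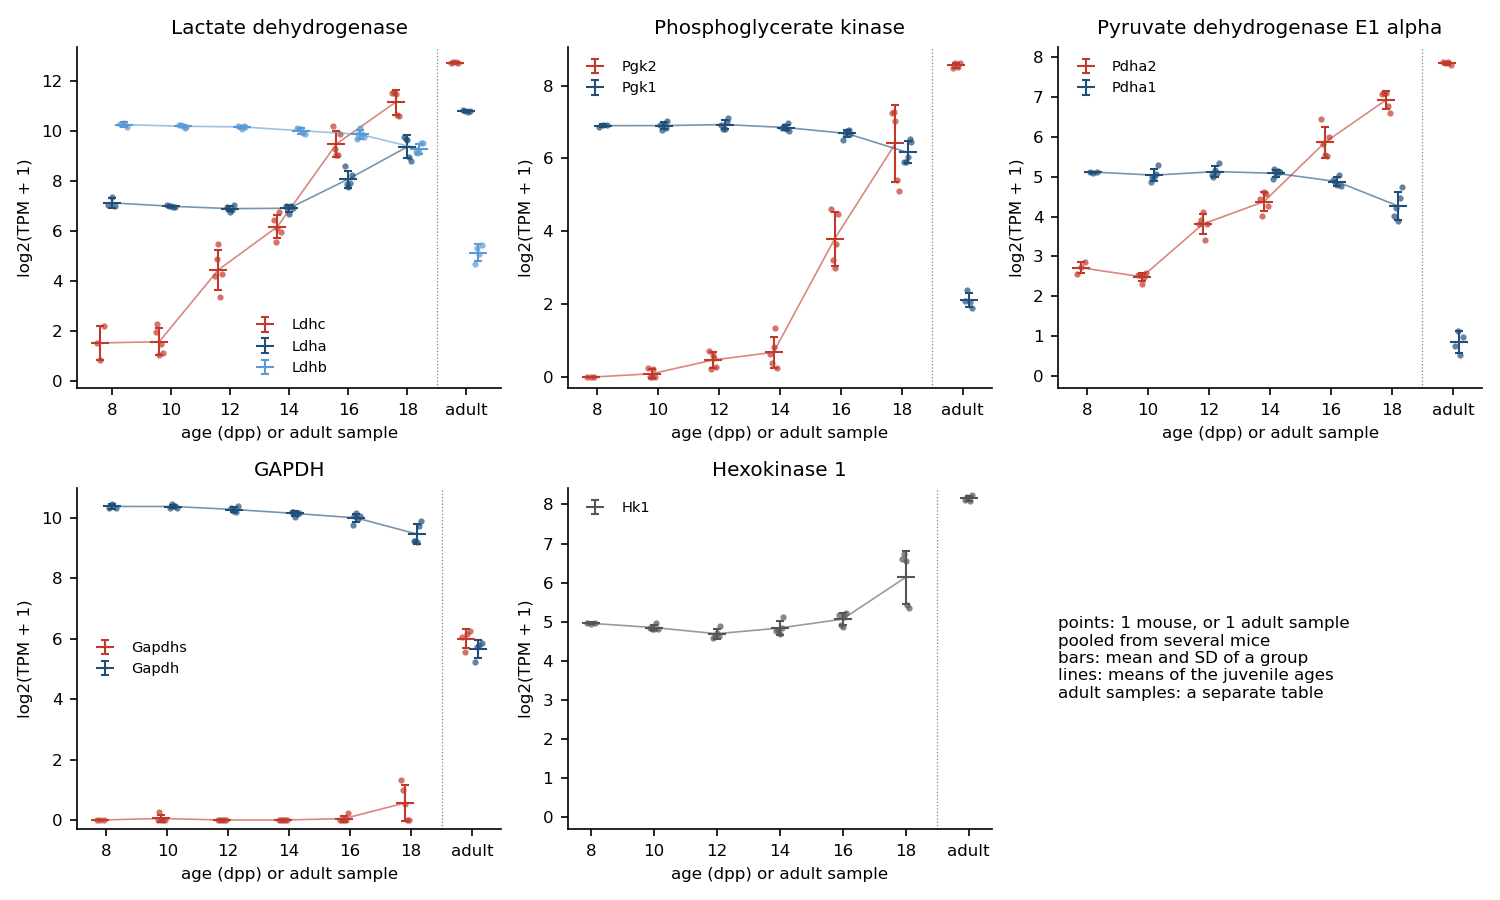
Level of each isozyme on the log2(TPM + 1) scale against age, with 1 point per mouse or adult sample, the mean and SD of each group as bars, and germ cell isozymes in red. Ldhc rises from 10 dpp on and Pgk2 mainly from 14 dpp on, Ldha alone among the somatic isozymes rises with them, and Gapdhs stays near 0 until the adult samples, which come from a separately normalized table.

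Lactate dehydrogenase is a tetramer of subunits encoded by Ldha (muscle type), Ldhb (heart type) and Ldhc (germ cell type). Ldha (ENSMUSG00000063229, chr7:46841475-46855627, plus strand, GRCm38) and Ldhc (ENSMUSG00000030851, chr7:46861203-46878142, plus strand) are neighbours separated by 5575 bases, and Ldhb (ENSMUSG00000030246, chr6:142490249-142507957, minus strand) lies on another chromosome. Their coding sequences are 73.2% identical between Ldhc and Ldha and 64.8% between Ldhc and Ldhb, with no identical run longer than 20 bases, against 100 bp reads. The RefSeq promoters of Ldhc and of both Ldha starts are shown because both neighbouring genes rose, and no result below rests on the sequences. For Ldhc this is the upstream of 2 RefSeq starts; the window before the other, chr7:46861237-46861486, lies downstream of the first base of Ldhc-201, is not printed, and held TAACNG once and no TGACG or GGGCGG. Each is the 250 bases before the start, 5′ to 3′, with capitals marking matches on either strand to TGACG (the core of the cAMP response element, found in 17.8% of 32851 RefSeq promoters of the same length), its full form TGACGTCA (1.55%, which holds TGACG on both strands), TAACNG (the core bound by MYB factors, 19.8%) and GGGCGG (the GC box, 32.7%).
Ldhc, chr7:46861013-46861262, plus strand: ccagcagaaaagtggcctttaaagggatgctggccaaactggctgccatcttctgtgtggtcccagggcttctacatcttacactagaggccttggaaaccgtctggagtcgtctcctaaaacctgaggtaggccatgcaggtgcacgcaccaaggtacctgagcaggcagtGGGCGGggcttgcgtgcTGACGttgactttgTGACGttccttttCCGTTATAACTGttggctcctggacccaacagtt
Ldha upstream start, chr7:46845554-46845803, plus strand: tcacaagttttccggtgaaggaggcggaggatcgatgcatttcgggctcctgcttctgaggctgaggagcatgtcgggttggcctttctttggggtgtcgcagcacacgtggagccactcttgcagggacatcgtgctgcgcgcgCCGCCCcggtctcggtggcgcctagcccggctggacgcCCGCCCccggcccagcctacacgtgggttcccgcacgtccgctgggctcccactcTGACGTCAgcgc
Ldha internal start, chr7:46846832-46847081, plus strand: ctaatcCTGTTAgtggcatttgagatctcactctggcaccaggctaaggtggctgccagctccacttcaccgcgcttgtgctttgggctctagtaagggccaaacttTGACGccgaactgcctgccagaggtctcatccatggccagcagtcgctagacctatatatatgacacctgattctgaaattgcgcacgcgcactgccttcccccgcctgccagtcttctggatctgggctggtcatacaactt
The printed Ldhc window held TGACG beginning at -61 and -47, TAACNG matches at -34 and -28 and a GC box at -78, counted from the start. The upstream Ldha window held TGACGTCA at -12 and GC boxes at -105 and -67, and the internal Ldha window held TGACG at -143 and TAACNG at -244. A match describes the letters only. The last bases of that Ldhc window lie in the first exon of Ldhc-201 as GENCODE draws it. Both Ldha windows end upstream of the GENCODE starts of the transcripts described below, Ldha-202 at 46845839 and Ldha-201 at 46847131. The internal window ends directly before the start of another transcript, Ldha-210, at 46847082.

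Ldhc was near the bottom of the measured range at 8 dpp and among the most abundant isozyme mRNAs at 18 dpp. It was at 1.87, 0.77 and 3.55 TPM in the mice of 8 dpp, and between 1.01 and 3.78 TPM at 10 dpp. At 12 dpp the 5 mice had 17.5, 28.4, 43.3, 9.27 and 18.3 TPM, and at 14 dpp between 45.9 and 108 TPM. Every mouse of 12 dpp was above every younger mouse. At 16 dpp the values were 1191, 617, 523, 531 and 936 TPM, and at 18 dpp 2917, 3038, 2891, 1589 and 1543 TPM. No neighbouring ages overlapped from 10 dpp on, and mice 4 and 5 of 18 dpp lay between the 16 dpp mice and mice 1 to 3 of 18 dpp. On the log2(TPM + 1) scale the difference was 9.65 ± 0.39 (SE) between 8 and 18 dpp (adjusted p = 8.09e-17, limma), and the single steps were 2.88 ± 0.34 from 10 to 12 dpp, 1.73 ± 0.34 from 12 to 14 dpp, 3.32 ± 0.34 from 14 to 16 dpp and 1.67 ± 0.34 from 16 to 18 dpp.

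Ldhb, the most abundant lactate dehydrogenase mRNA of the young ages, declined. It was at 1255, 1287 and 1147 TPM at 8 dpp and at 567.8, 557, 576, 730.4 and 728 TPM at 18 dpp, with no overlap. The difference was -0.97 ± 0.09 on the log2(TPM + 1) scale (adjusted p = 3.61e-10, limma), and -0.58 ± 0.08 of it lay between 16 and 18 dpp. The 10 dpp to 16 dpp difference of -0.33 ± 0.08 passed the test (adjusted p = 0.000965, limma) but not after quantile normalization, where it was -0.09 (adjusted p = 0.428). Ldhb thus fell in the same direction as the Sertoli cell and spermatogonium markers given above, whose part in the result was not tested.

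Ldha, classed as a somatic isozyme, rose. It stayed between 101 and 163 TPM in all 18 mice of 8 to 14 dpp, where no step passed the test. At 16 dpp it was at 383, 232, 216, 241 and 306 TPM and at 18 dpp at 874, 829.6, 795, 501 and 442 TPM, so that 14, 16 and 18 dpp did not overlap. The steps were 1.17 ± 0.15 from 14 to 16 dpp (adjusted p = 1.79e-06, limma) and 1.29 ± 0.15 from 16 to 18 dpp (adjusted p = 1.33e-06, limma), and the difference between 8 and 18 dpp was 2.25 ± 0.18 (adjusted p = 1.39e-11, limma). With mice 4 and 5 alone standing for 18 dpp that difference was 1.75, and with mice 1 to 3 alone it was 2.58.

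The rise of Ldha lay in a transcript with its own start site. Ldha-202 begins at position 46845839 of chromosome 7, and Ldha-201 begins 1292 bases downstream at 46847131, inside the first intron of Ldha-202. The first exons, of 79 bases in Ldha-202 and 258 bases in Ldha-201, are non-coding, both transcripts join at the exon at 46847596 to 46847745, and both hold the identical coding sequence of 996 bases beginning at 46847620. Ldha-201 was at 0.79, 0 and 0.45 TPM at 8 dpp and at 0 or 0.02 TPM in every mouse of 10 dpp. It reached between 4.86 and 13.4 TPM at 14 dpp, 252, 102, 98.0, 107 and 199.6 TPM at 16 dpp, and 759.5, 733, 647, 365 and 321 TPM at 18 dpp. The mean of Ldha-202 meanwhile was 138 ± 20.2 TPM (SD, n = 3) in the 8 dpp mice, 124 ± 11.5 TPM in the 16 dpp mice and 123 ± 19.6 TPM in the 18 dpp mice (SD, n = 5 each), and its mice of 8 and 18 dpp overlapped.

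As a share of the gene's TPM, Ldha-201 went from 0.322% at 8 dpp to 80.5% at 18 dpp, a change of 80.2 ± 4.14 points (SE, adjusted p = 0.000225, limma over all transcripts tested). Ldha-202 went from 99.1% to 19.5%. Between 10 and 16 dpp Ldha-201 went from 0.00323% to 52.9%, a change of 52.9 ± 4.84 points (adjusted p = 0.000999, limma). A change of at least 20 points with an adjusted p under 0.05 was found in 2.77% of 27116 transcripts between 8 and 18 dpp and in 0.81% of 26418 between 10 and 16 dpp. Of the members' transcripts that could be tested, 4 of 15 in the former comparison and 2 of 16 in the latter passed, and both Ldha transcripts were among them in each. Ldha-201 was below 1 TPM in every mouse of 8 and 10 dpp, so it entered these tests only through the older age. Without it Ldha would not have had the 2 transcripts needed for a test. The call for Ldha-201 held without any single mouse, with changes between 78.2 and 82.1 points. The 2 Ldha transcripts are told apart by reads over their first exons, and the split was estimated by RSEM.

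**Figure D2:**
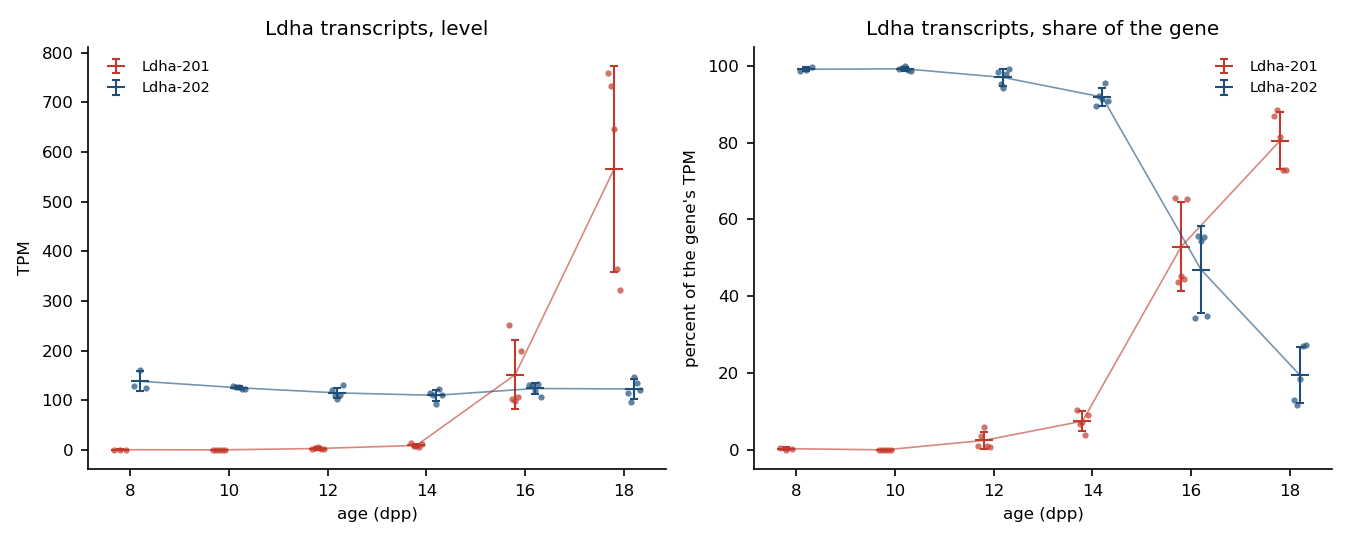
Level in TPM (left) and share of the gene's TPM in percent (right) of the transcripts Ldha-201 and Ldha-202 against age, with 1 point per mouse and the mean and SD of each age as bars. Ldha-201 rises from at most 0.79 TPM at 8 dpp to between 321 and 759.5 TPM at 18 dpp, while the mean of Ldha-202 moves only from 138 to 123 TPM.

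Ldhc also had 3 transcripts at 1 TPM or more, and here the shares were stable once the gene was abundant. Ldhc-201 made up between 86.3% and 90.9% of the gene's TPM at 16 dpp and between 87.7% and 91.7% at 18 dpp. The 3 lactate dehydrogenase genes summed to 1371 ± 88.4 TPM (SD, n = 3) at 8 dpp and to 3716 ± 869 TPM (SD, n = 5) at 18 dpp, and the part of Ldhc in this sum went from 0.155% to 63.3% ± 6.16, with mice 1 to 3 of 18 dpp between 66.9% and 68.7% and mice 4 and 5 at 56.3% and 56.9%. At 16 dpp Ldhc was above Ldha in 5 of 5 mice and above Ldhb in 2 of 5, and at 18 dpp it was above both in 5 of 5.

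Phosphoglycerate kinase makes ATP in the later steps of glycolysis. Pgk1 (ENSMUSG00000062070, chrX:106187100-106203699, plus strand) and Pgk2 (ENSMUSG00000031233, chr17:40207015-40208640, minus strand) are 79.3% identical in their 1251 coding bases, with a longest identical run of 22 bases. The 250 bases before the RefSeq start of Pgk2 are shown with CCAAT, found in 33.8% of promoters on either strand, in capitals at -86 and -52, and its last bases lie in the exon as GENCODE draws it.
Pgk2, chr17:40208610-40208859, minus strand: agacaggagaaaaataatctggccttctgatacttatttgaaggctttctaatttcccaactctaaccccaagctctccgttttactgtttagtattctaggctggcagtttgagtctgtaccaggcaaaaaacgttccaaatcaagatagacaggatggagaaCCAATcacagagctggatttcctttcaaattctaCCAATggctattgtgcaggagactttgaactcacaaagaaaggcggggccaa
Pgk2 was listed at 0 in all 3 mice of 8 dpp and in 3 of 5 of 10 dpp, and it stayed at or below 1.53 TPM through 14 dpp. At 16 dpp it was at 23.3, 8.32, 6.91, 11.6 and 21.2 TPM and at 18 dpp at 151, 154, 129, 41.3 and 33.6 TPM. The step from 14 to 16 dpp was 3.11 ± 0.35 on the log2(TPM + 1) scale (adjusted p = 1.51e-07, limma), and that from 16 to 18 dpp 2.63 ± 0.35 (adjusted p = 2.35e-06, limma). Pgk2 passed the filter of 3 TPM, and so entered these tests, only through 16 and 18 dpp. No fold is given against 8 dpp, where the gene was listed at 0. The step of Pgk2 from 10 to 12 dpp, 0.37 ± 0.35, did not pass (adjusted p = 0.511, limma), where those of Ldhc and Pdha2 did; the difference between these steps was not tested.

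Pgk1 fell late and by less. Its values were 115, 121 and 119 TPM at 8 dpp, between 106 and 138 TPM from 10 to 14 dpp, between 90.5 and 108 TPM at 16 dpp, and 58.7, 58.6, 65.4, 91.2 and 86.0 TPM at 18 dpp. The difference between 8 and 18 dpp was -0.74 ± 0.11 (adjusted p = 1.37e-06, limma), and it was -0.95 with mice 1 to 3 and -0.41 with mice 4 and 5 alone at 18 dpp. The difference of -0.22 ± 0.10 between 10 and 16 dpp did not pass (adjusted p = 0.0598, limma), although it did after median-of-ratios scaling (adjusted p = 0.0369) and quantile normalization (adjusted p = 0.0386). The 2 phosphoglycerate kinase mRNAs together changed little until 16 dpp, from 118 ± 3.02 TPM (SD, n = 3) at 8 dpp to 116 ± 4.62 TPM (SD, n = 5), and then reached 174 ± 44.5 TPM (SD, n = 5). Pgk2 exceeded Pgk1 in 3 of 5 mice of 18 dpp, namely mice 1 to 3, where it made up 72.1%, 72.4% and 66.4% of the sum, against 31.1% and 28.1% in mice 4 and 5.

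The E1 alpha subunit of pyruvate dehydrogenase carries the regulatory phosphorylation sites of the complex. Pdha1 (ENSMUSG00000031299, chrX:160122209-160138413, minus strand) overlaps Map3k15, and Pdha2 (ENSMUSG00000047674, chr3:141210004-141212355, minus strand) is 75.6% identical to it over 1170 aligned coding bases. The Pdha2 promoter is shown because Pdha2 had the highest mean level of the germ cell isozymes at 8 dpp. It is poor in G and C (31.6%, against a median of 52.4% over all promoters) and holds TATAAA, found in 12.4% of promoters, at -44, in capitals.
Pdha2, chr3:141212356-141212605, minus strand: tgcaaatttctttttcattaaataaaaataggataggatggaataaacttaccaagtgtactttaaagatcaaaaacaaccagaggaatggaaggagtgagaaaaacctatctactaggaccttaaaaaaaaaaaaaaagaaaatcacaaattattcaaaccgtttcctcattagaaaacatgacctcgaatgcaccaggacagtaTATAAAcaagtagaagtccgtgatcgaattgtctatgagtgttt
Pdha2 was at 4.93, 5.64 and 6.23 TPM at 8 dpp and between 3.95 and 5.00 TPM at 10 dpp. It rose to between 9.70 and 16.4 TPM at 12 dpp, and was at 20.6, 15.1, 23.4, 22.8 and 18.1 TPM at 14 dpp. At 16 dpp it was at 86.4, 55.5, 45.8, 44.5 and 62.4 TPM and at 18 dpp at 133, 135, 137, 108 and 95.0 TPM. The groups from 14 to 18 dpp did not overlap, while the 12 and 14 dpp mice did, and that step of 0.56 ± 0.15 did not pass (adjusted p = 0.133, limma). The step from 10 to 12 dpp was 1.33 ± 0.15 (adjusted p = 3.39e-07, limma), and the difference between 8 and 18 dpp 4.20 ± 0.17 (adjusted p = 1.06e-16, limma).

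Pdha1 was at 34.0, 33.4 and 33.7 TPM at 8 dpp, between 28.02 and 39.4 TPM from 10 to 14 dpp, and at 15.3, 17.7, 13.7, 21.1 and 25.6 TPM at 18 dpp. It changed by -0.85 ± 0.13 between 8 and 18 dpp (adjusted p = 1.61e-06, limma), of which -0.61 ± 0.11 came between 16 and 18 dpp (adjusted p = 6.3e-05, limma). Pgk1 and Pdha1 were thus lower at 18 dpp, like 62.3% of the 652 X-linked genes tested and 38.4% of the 14210 autosomal ones. In the adult samples Pgk1 was at 3.36 ± 0.619 TPM and Pdha1 at 0.828 ± 0.335 TPM (SD, n = 4 each). Pdha2 exceeded Pdha1 in no mouse up to 14 dpp and in 5 of 5 mice at both 16 and 18 dpp, and its share of the pair began at 14.2% ± 1.48 (SD, n = 3) in the 8 dpp mice and reached 37.6% ± 5.11 in those of 14 dpp, 66.6% ± 6.33 in those of 16 dpp and 86.3% ± 5.02 in those of 18 dpp (SD, n = 5 each).

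Glyceraldehyde-3-phosphate dehydrogenase was the family in which the germ cell isozyme stayed near 0 in the juvenile mice. Gapdh (ENSMUSG00000057666, chr6:125161715-125166467, minus strand) was at 1284, 1400.3 and 1282 TPM at 8 dpp and at 597, 599.6, 589, 851 and 936 TPM at 18 dpp, with no overlap. Its difference was -0.92 ± 0.11 (adjusted p = 5.3e-08, limma), and -0.54 ± 0.10 of this came between 16 and 18 dpp. The 10 to 16 dpp difference of -0.38 ± 0.10 (adjusted p = 0.00191, limma) was -0.13 after quantile normalization and did not pass (adjusted p = 0.314). Gapdh is a common reference gene with many pseudogenes, and the shares of its 8 tested transcripts changed by between -8.03 and 8.88 points from 8 to 18 dpp (smallest adjusted p = 0.443, limma).

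Gapdhs (ENSMUSG00000061099, chr7:30729775-30743681, minus strand), the sperm enzyme bound to the fibrous sheath of the flagellum, was listed at 0 in all mice of 8, 12 and 14 dpp. A single mouse of 10 dpp had 0.19 TPM and a single mouse of 16 dpp 0.17 TPM. At 18 dpp mice 1 to 3 had 1.53, 0.97 and 0.43 TPM, and mice 4 and 5 were listed at 0. In the adult samples it was at 64.6, 45.6, 70.1 and 74.6 TPM, above Gapdh in 3 of 4 samples, and these are the samples in which the 6 spermatid markers summed to between 862 and 1166 TPM. The part of spermatid RNA in these values was not tested. Gapdhs overlaps Tmem147os and Gm26935, and no strand-specific step is given in the sources used here.

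Hk1 (ENSMUSG00000037012, chr10:62268855-62379908, minus strand), which phosphorylates glucose, rose as a whole gene only at the last age. It was at 30.5, 29.5 and 30.4 TPM at 8 dpp, between 23.0 and 36.4 TPM from 10 to 16 dpp, and at 96.9, 105, 93.0, 42.0 and 39.9 TPM at 18 dpp. All 5 mice of 18 dpp were above every younger mouse, but mice 4 and 5 only just. The difference was 1.17 ± 0.21 from 8 to 18 dpp (adjusted p = 2.28e-05, limma) and 1.07 ± 0.18 from 16 to 18 dpp (adjusted p = 3.49e-05, limma). It was 1.67 with mice 1 to 3 and 0.43 with mice 4 and 5 alone at 18 dpp (adjusted p = 0.00276 for the latter, limma). Hk2, the other hexokinase of the list above the filter, went the other way, from 61.7 ± 2.84 TPM (SD, n = 3) at 8 dpp to 42.2 ± 5.52 TPM (SD, n = 5) at 18 dpp (adjusted p = 0.00285, limma), a call lost with mice 4 and 5 alone at 18 dpp (adjusted p = 0.0851).

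The Hk1 transcripts that were absent at 8 dpp and present at 18 dpp start upstream of the one that fell. The gene is known to have testis-type transcripts with other 5′ exons. The 250 bases before the upstream RefSeq start, which is that of Hk1-203, are shown, and they held none of the 6 motifs named above, so no letter is in capitals.
Hk1 upstream start, chr10:62379909-62380158, minus strand: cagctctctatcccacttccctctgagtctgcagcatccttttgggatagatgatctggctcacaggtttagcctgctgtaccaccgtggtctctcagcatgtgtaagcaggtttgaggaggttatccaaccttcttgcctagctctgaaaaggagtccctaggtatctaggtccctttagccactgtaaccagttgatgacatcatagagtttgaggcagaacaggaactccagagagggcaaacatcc
This window held 1 CpG, and the window before the downstream RefSeq start, near the start of the most downstream transcript tested, held 14, beside a median of 6 over all promoters. Of the 5 Hk1 transcripts that could be tested, the most downstream, which starts at 62340542, was at 15.8, 16.5 and 12.2 TPM at 8 dpp and at 7.71, 6.16, 7.10, 11.2 and 12.4 TPM at 18 dpp. Its share of the gene went from 49.3% to 15.8%, a change of -33.5 ± 7.33 points (adjusted p = 0.0389, limma). Hk1-217, a fragment of 296 bases that starts at 62362274, was listed at 0 in every mouse of 8, 10 and 12 dpp and was at 21.96, 34.5, 29.3, 7.02 and 4.01 TPM at 18 dpp. It reached 22.8% of the gene, a change of 22.8 ± 5.38 points (adjusted p = 0.0499, limma). Both calls rest on single mice: with 1 of the 8 mice left out in turn, that of the transcript starting at 62340542 was lost in 6 cases (without any mouse of 8 dpp or any of mice 1 to 3 of 18 dpp, change between -30.2 and -38.1 points) and that of Hk1-217 in 7 (all but mouse 5 of 18 dpp, change between 20.2 and 24.3 points), with adjusted p up to 0.133. Between 10 and 16 dpp the share of Hk1-217 went from 0 to 11.1%, a change of 11.1 ± 1.24 points (adjusted p = 0.00264, limma). This change was below the 20 points needed for a call, and it lay between 10.0 and 11.9 points with 1 mouse left out. Hk1-203, which starts at 62379908, was listed at 0 through 12 dpp and was at 9.04, 11.7, 7.44, 1.34 and 5.92 TPM at 18 dpp. Its change in share of 9.30 ± 2.44 points did not pass (adjusted p = 0.0684, limma). Hk1-217 and Hk1-203 entered these tests only through the older age. The transcripts starting at 62358362 and 62342722 had higher means than at 8 dpp, at 18.9 ± 9.71 and 20.1 ± 8.95 TPM (SD, n = 5 each), and their shares changed by less than 4 points.

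**Figure D3:**
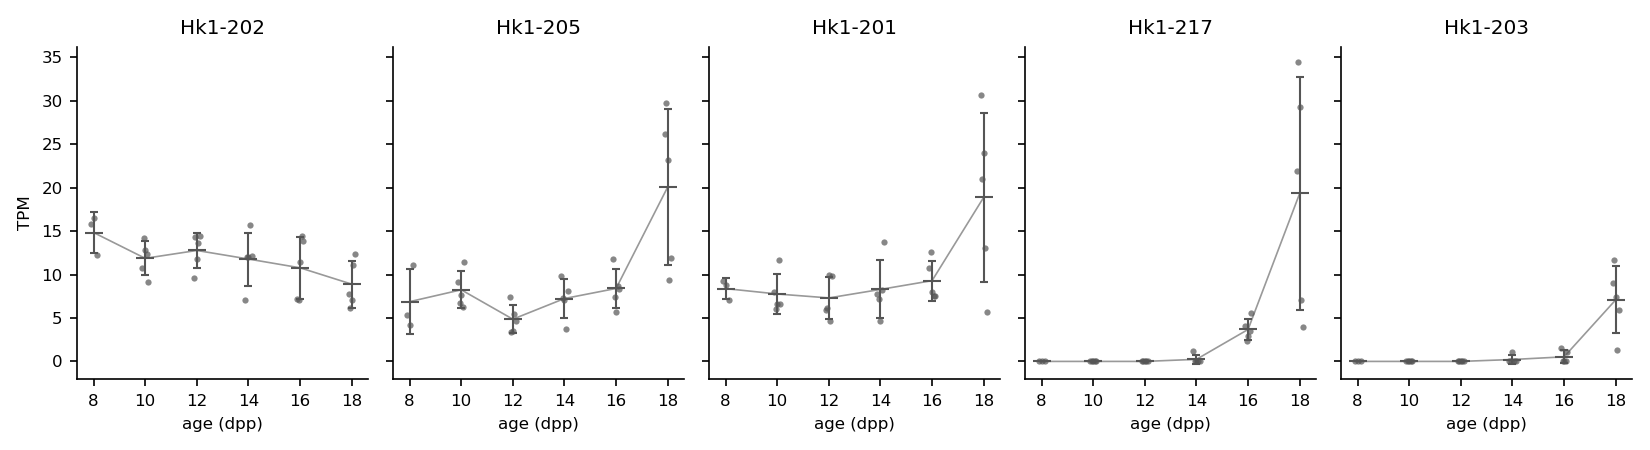
Level in TPM of 5 Hk1 transcripts against age, with 1 point per mouse and the mean and SD of each age as bars, ordered by start site from the most downstream to the most upstream. Hk1-217 and Hk1-203 are at 0 in every mouse of 8 to 12 dpp and are present in every mouse of 18 dpp, while the most downstream, in the leftmost panel, goes from a mean of 14.8 to 8.90 TPM.

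Each germ cell isozyme was then compared with its somatic paralog within the same mouse, as the difference of their log2(TPM + 1) values. A factor common to both genes cancels in this difference only where both lie well above the pseudocount of 1 TPM. In 15 two-sided exact permutation tests over mice, of 5 pairs in 3 comparisons of ages, the adjusted p (Benjamini-Hochberg over the 15) lay between 0.0132 and 0.0357. With 5 mice against 3 the smallest p possible is 0.0357, and with 5 against 5 it is 0.00794. The groups did not overlap in 14 of the 15, the exception being Gapdhs over Gapdh between 16 and 18 dpp. No share over other gene pairs was taken, so these counts are a description only. Of single genes, 31.8% were higher and 36.3% lower between 8 and 18 dpp. Between 10 and 16 dpp these shares were 27.7% and 23.9%, and between 16 and 18 dpp 23.4% and 30.6%.

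The ratio of Ldhc to Ldha started at -5.62 ± 0.87 (SD) in the youngest mice, was 1.41 ± 0.21 at 16 dpp, and ended at 1.79 ± 0.09 in the oldest. It thus increased by 7.40 from 8 to 18 dpp but by only 0.38 from 16 to 18 dpp (exact permutation p = 0.00794, 5 mice each), when both genes rose. Mice 1 to 3 and mice 4 and 5 of 18 dpp, which differed in the level of each gene, spanned only 1.66 to 1.87 in this ratio. Ldhc over Ldhb moved by 10.6 between 8 and 18 dpp, from -8.75 ± 0.76 to 1.87 ± 0.70 (SD). Pdha2 over Pdha1 moved by 5.06, from -2.40 ± 0.15 to 2.66 ± 0.57 (SD), and by 1.67 from 16 to 18 dpp.

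Pgk2 over Pgk1 moved by 3.91 between 10 and 16 dpp and by a further 3.15 from 16 to 18 dpp, to 0.25 ± 1.36 (SD), the widest spread of the 5 pairs at 18 dpp. With Pgk2 listed at 0 in 3 of 5 mice of 10 dpp, the former value is set by the pseudocount, and it was 6.64 with a pseudocount of 0.1 (exact permutation p = 0.00794, 5 mice each). Gapdhs over Gapdh moved from -9.94 ± 0.16 at 16 dpp to -8.89 ± 0.89 at 18 dpp (SD, exact permutation p = 0.0317, 5 mice each). With Gapdhs at 0 in most mice this ratio is set by the pseudocount and by Gapdh, and with a pseudocount of 0.1 the comparisons of 16 with 10 dpp and of 18 with 16 dpp no longer passed (adjusted p = 0.429 and 0.068).

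**Figure D4:**
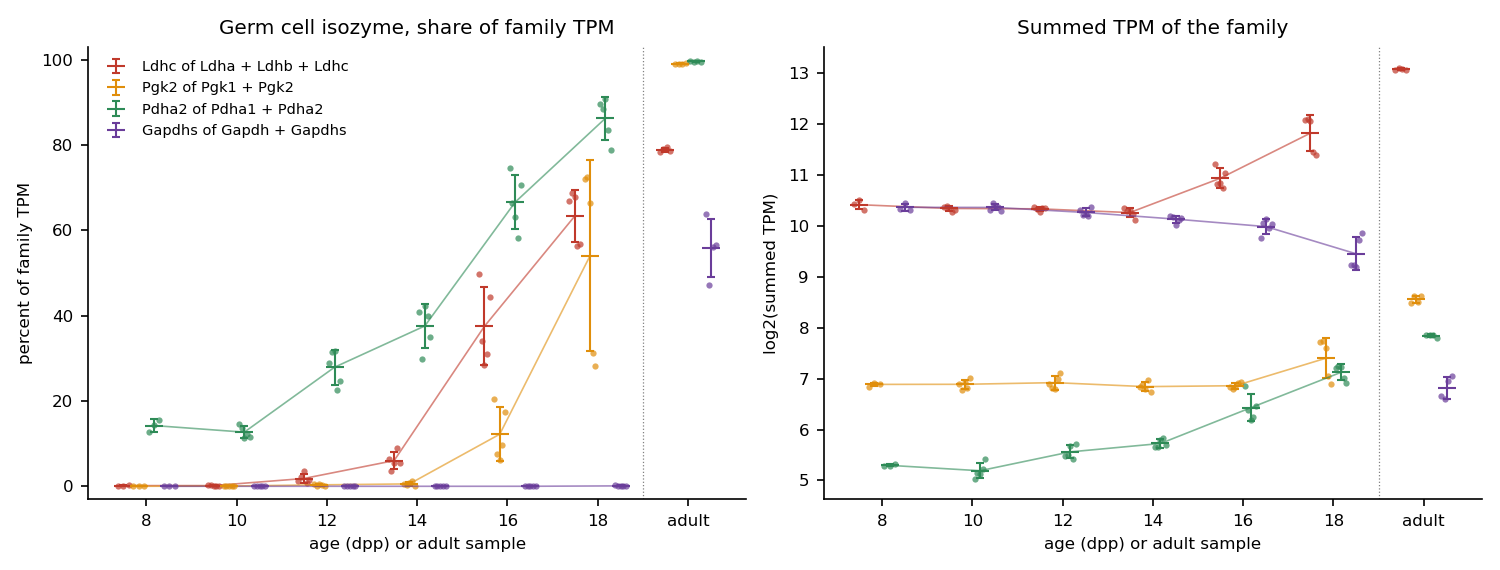
Share of the germ cell isozyme in the TPM of its family in percent (left) and log2 of the summed TPM of the family (right) against age, with 1 point per mouse or adult sample and the mean and SD of each group as bars. The shares of Pdha2, Ldhc and Pgk2 reach means of 86.3%, 63.3% and 54.0% at 18 dpp, with Gapdhs at 0.098%, and the families differ in whether their sum rises (Ldh, Pgk, Pdha) or falls (Gapdh).

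In the adult spermatocyte samples, values of a separate table are set beside those of 18 dpp without a test. Ldhc was at 6852 ± 139.6 TPM, Ldha at 1801 ± 35.5 TPM and Ldhb at 34.8 ± 7.85 TPM (SD, n = 4 each), so Ldhc made up 78.9% ± 0.511 of the family. Ldhc over Ldha was 1.93 ± 0.05, beside 1.79 ± 0.09 at 18 dpp. Pgk2 was at 375 ± 18.4 TPM and made up 99.1% of its pair, and Pdha2 was at 229 ± 5.85 TPM and made up 99.6%. Gapdhs at 63.7 ± 12.7 TPM and Gapdh at 49.97 ± 9.24 TPM were close, and the family sum of 114 ± 17.2 TPM was below that of every juvenile mouse. Hk1 was at 284 ± 13.5 TPM. Ldhb, Gapdh, Pgk1 and Pdha1 lay at or below 57.3 TPM in each adult sample, unlike Ldha. There the Sertoli cell markers summed to at most 469.98 TPM, the peritubular markers to at most 10.73 TPM and the spermatogonium markers to at most 11.38 TPM. The macrophage, red blood cell and endothelial markers were also below those of every juvenile mouse, and the Leydig cell markers were not. The part of any of these cell types in the low values was not tested.

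The rest of the pathway was read from a list of 43 other genes of glycolysis and of lactate and pyruvate use, of which Ldhal6b was not analysed here and 35 had at least 3 TPM in a juvenile mouse. Of these 35, 16 were higher and 13 lower at 18 than at 8 dpp (45.7% and 37.1%, beside 31.8% and 36.3% of all genes), and 6 did not pass. Among the higher genes Pgam2, Eno4, Slc16a7 and Ldhd were below 3 TPM in each mouse of 8 dpp, so they passed the filter only through older mice. The median log2 difference was 0.02 over the list and -0.09 over all genes.

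The largest rise of the list was in Pgam2, the muscle-type phosphoglycerate mutase, which went from 1.66 ± 1.06 TPM (SD, n = 3) to 484 ± 181 TPM (SD, n = 5) as Pgam1 went from 408 ± 8.44 to 228 ± 41.4 TPM. Slc2a3, the glucose transporter GLUT3, went from 13.4 ± 0.492 to 1147 ± 403 TPM, a log2 difference of 6.24 ± 0.27 (adjusted p = 1.76e-16, limma). Slc16a7, a monocarboxylate transporter, went from 1.23 ± 0.452 to 25.02 ± 10.96 TPM (SD, n as before), and Pfkp, a phosphofructokinase, from 6.35 ± 0.647 to 71.6 ± 32.6 TPM. In the enolase step Eno4 and Eno3 rose by 2.85 ± 0.21 and 2.04 ± 0.14 on the log2 scale (SE) while Eno1 fell by 0.42. At 18 dpp the mice split here as well, and with mice 1 to 3 or with mice 4 and 5 alone the differences were 7.92 and 6.84 for Pgam2, 6.64 and 5.63 for Slc2a3, 3.93 and 2.72 for Slc16a7 and 3.71 and 2.36 for Pfkp. The phosphoglycerate mutase and enolase steps thus also held an isozyme that rose beside one that fell. In the phosphofructokinase step Pfkl did not pass over all mice between 8 and 18 dpp, and the aldolases Aldoa and Aldoc both fell.

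Around the pyruvate dehydrogenase complex, Pdhb, Dlat, Dld and Pdhx, the other subunits listed, rose by 0.88 ± 0.07, 1.30 ± 0.11, 0.49 ± 0.05 and 0.84 ± 0.08 (log2, SE). Of its kinases and phosphatases, Pdk2 was higher by 1.32 ± 0.18, and Pdk1, Pdk3, Pdp1 and Pdpr were lower, with Pdk1 changing by -1.11 ± 0.12, Pdp1 by -1.11 ± 0.10 and Pdpr by -0.88 ± 0.09. The other large falls were in Aldoc (-1.35 ± 0.14) and Aldoa (-0.92 ± 0.09), the aldolases, Gpi1, glucose phosphate isomerase (-0.93 ± 0.08), Pgam1 (-0.86 ± 0.10) and Pkm, pyruvate kinase (-0.83 ± 0.09). With mice 1 to 3 or mice 4 and 5 alone at 18 dpp, Pdk2 differed by 1.72 and 0.71 and Pdk3 by -0.70 and -0.20, with the call kept in each. The falls given in this paragraph with an SE, over all mice, passed the limma test with adjusted p of at most 1.51e-08.

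**Figure D5:**
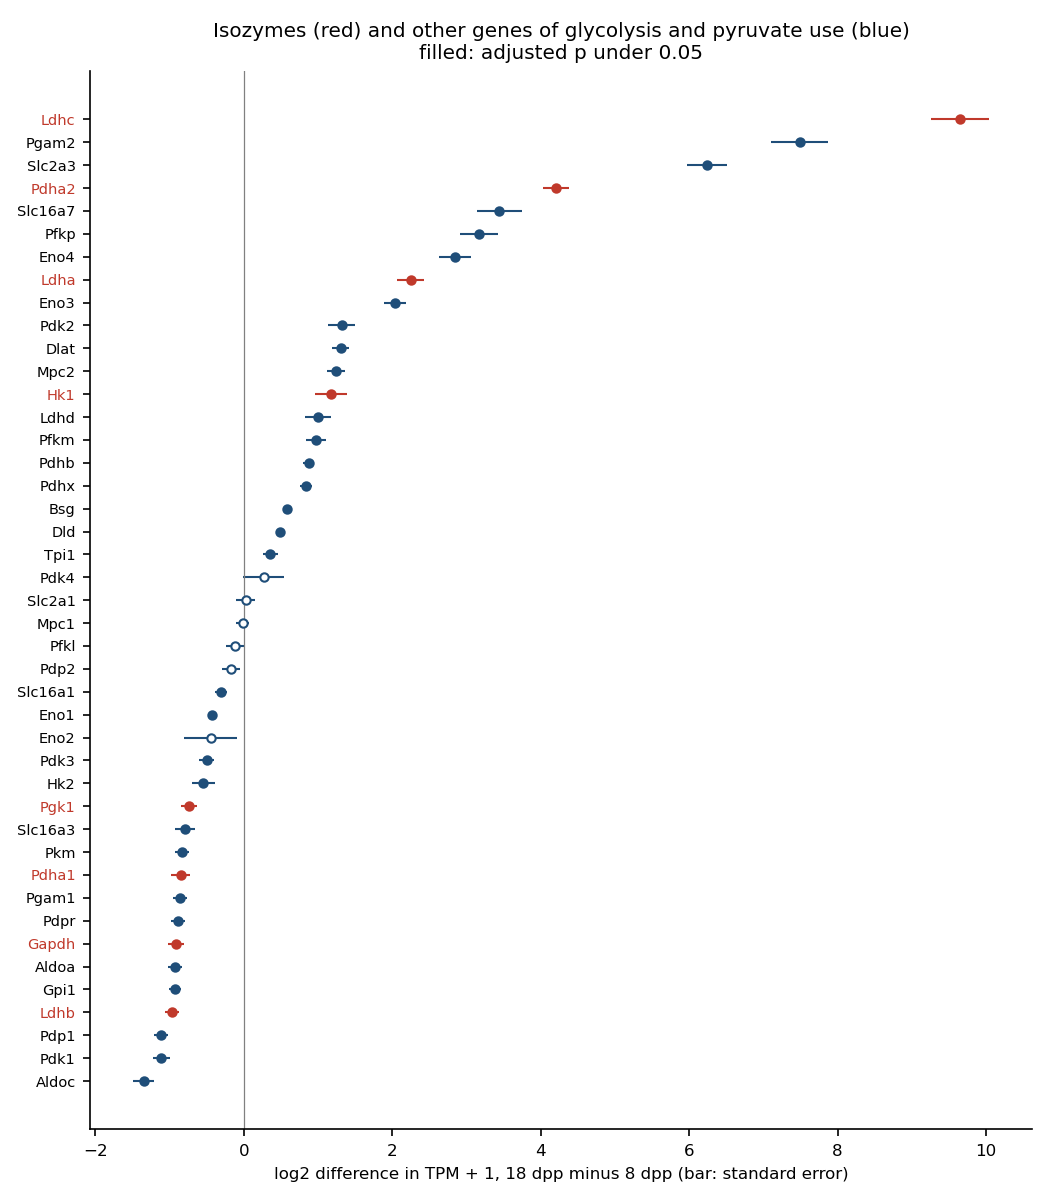
Difference between 18 and 8 dpp on the log2(TPM + 1) scale, with its standard error as a bar, for 8 members (red) and the 35 other genes of glycolysis and pyruvate use (blue); filled symbols passed an adjusted p of 0.05. Pgk2 is left out because it was listed at 0 at 8 dpp. Ldhc, Pgam2 and Slc2a3 lie furthest to the right, and the 4 members that fell lie among Pkm, Pgam1, Aldoa and Gpi1.

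Over the 28 juvenile mice, the genes outside the list whose log2(TPM + 1) followed each germ cell isozyme most closely were taken as a description. For Ldhc these were Piwil1, Zmynd10 and Smim24 (Pearson's r from 0.995 to 0.996), for Pgk2 Ankar, Rimbp3 and Slc22a16 (0.996 to 0.997), and for Pdha2 Ybx2, Clgn and Adam2 (0.996 to 0.997). Piwil1 and Adam2 are among the 5 pachytene spermatocyte markers used above. The 28 points share the course of age and the composition of the samples.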

How the data were processed

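RNA-seq of 28 juvenile mice and 4 adult samples was read from processed tables. Per the labels and methods, the authors filtered and trimmed 100 bp paired-end reads, merged 2 lanes, aligned them with Bowtie 1.0.0 to transcripts of Ensembl release 75 (mm10) and NONCODE version 4, and estimated TPM with RSEM 1.2.8. The transcript and adult tables were deposited as TPM. The juvenile gene table was deposited on another scale (a score equal to exp(log2(TPM + 1)) - 1) and was converted back; 20288 of its 20368 genes then lay within 0.2 TPM of their summed transcripts in every mouse and 80 did not.

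Gene differences were tested with limma 3.58.1 in R 4.3.3 on log2(TPM + 1), with trend, for genes of at least 3 TPM in 1 mouse, with all 6 ages in 1 model and Benjamini-Hochberg adjustment. Differences on this scale understate the change of low genes. Transcript shares were tested with limma in genes of at least 3 TPM in both ages with at least 2 transcripts of 1 TPM. Ratios were tested by exact permutation over mice. The procedures were checked on simulated data. Labels give each juvenile sample an age and a number, and the methods state that each came from 1 mouse. Adult values entered no test. Members and lists were chosen with earlier results of these data known. All members were named, with the 8 largest rises and 8 largest falls of the pathway list, other isozymes of a step, and the 3 closest genes by correlation. Alternatives covered the pseudocount, filter, scaling, prior variance, samples, mouse number and each mouse left out. Promoters came from RefSeq (GRCm38.p6), with 14 windows for 10 of 10 members. Reads of near-identical pseudogenes (Ldha, Pgk1, Gapdh) may be split between copies.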

Additional observations from a re-analysis of the deposited data

Results flagged for a closer look

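Of 76 groups of 4 or 5 samples examined for a member or transcript, 5 held a sample whose distance from the nearest other exceeded Dixon's 95% critical value. Chance flags about 1 in 20 groups, but that rate does not apply to 4 of the 5, in which all other mice are at 0 and any value above 0 meets the criterion. Gapdhs was at 0.19 TPM in mouse 2 of 10 dpp and at 0.17 TPM in mouse 5 of 16 dpp, with the other mice of each age listed at 0. Hk1 was at 30.3 TPM in mouse 4 of 10 dpp, with the others between 27.0 and 27.9 TPM. Hk1-217 was at 1.2 TPM in mouse 1 of 14 dpp and Ldha-201 at 0.02 TPM in mouse 5 of 10 dpp, with the other mice of each age at 0.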

How the results depend on the processing

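Between 8 and 18 dpp, 9 members were called under each alternative except without a filter, where all 10 were tested and called. Between 10 and 16 dpp the count of 6 ranged from 5 (quantile normalization) to 8 (the 2 ages alone). The list count of 29 ranged from 28 to 31. Of 360 alternative values of the members' log2 differences, 351 kept direction and call, 2 lost the call, 7 gained it and 0 reversed. Mouse numbers did not pair the mice: the deviations of same-numbered mice correlated between -0.038 and 0.031. With the mouse number as a replicate block, 9 members were called between 8 and 18 dpp, 7 between 10 and 16 dpp (Pgk1 gained, adjusted p = 0.0303, limma; over its alternatives between 10 and 16 dpp 0.0116 to 0.157), and 29 listed genes. Of the 15 isozyme ratios, 13 passed with a pseudocount of 0.1, 0 in mice 1 to 3 alone, 0 with the replicate block and between 9 and 15 with 1 mouse left out; in mice 1 to 3 alone, with the block, and for 18 against 8 dpp with any mouse of these ages left out, an exact test cannot reach the threshold, so those losses say nothing about stability. The ratio of Gapdhs to Gapdh between 16 and 18 dpp was lost in 7 cases of 1 mouse left out. Of the 4 transcript shares called between 8 and 18 dpp, 2 were called with the replicate block and between 2 and 4 with 1 mouse left out, and both Ldha transcripts kept the call in each. With mice 4 and 5 alone at 18 dpp, chosen after their values were seen, Hk2, Tpi1 and Slc16a1 lost the call and Pdk4 and Slc2a1 gained it. With mice 1 to 3 alone standing for 18 dpp, Pfkl gained it. TPM holds no read counts, so what depth limits is unknown.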
